A study of Mus musculus with 15 samples.

Results

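The mouse miRNAs mmu-miR-296-3p, mmu-miR-296-5p and mmu-miR-298 (miR-296-3p, miR-296-5p and miR-298 from here on) were followed through every condition of a miRNA profiling experiment on mouse pancreatic endocrine cell lines. They were selected by assay name, and are 3 of the 584 miRNA assays on 2 TaqMan low density array cards. All 3 sit on card A. Total RNA came from αTC1-6, a glucagon-producing line established from a mouse tumour (glucagonoma), and from βTC1, an insulin-producing line established from a mouse insulinoma. αTC1-6 cells were left untreated or were exposed for 24 h or 48 h to 50 IU/ml IL-1β mixed with 1000 IU/ml each of IFN-γ and TNF-α, whereas βTC1 cells were profiled untreated at 24 h only. Each of the 5 groups has 3 samples, described as independent biological replicates of passaged tumour lines, so each cell type is represented by 1 line.

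Both miRNA genes lie in the imprinted Gnas locus, where allele-specific transcripts, among them the antisense noncoding RNA Nespas (Gnasas1), are read from a single parental chromosome. A miRNA hairpin is cut into a pair of arms, named 5p and 3p after their side of the hairpin. Either arm can be loaded into the silencing complex, where its seed, the bases next to its 5′ end, pairs with target mRNAs. Arms of one hairpin come from the same precursor, yet they can accumulate to different levels and carry different seeds.

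In the RefSeq annotation of GRCm38.p6 both hairpins are on the minus strand, Mir296 at chr2:174267047-174267125 and Mir298 at chr2:174267504-174267585, with 378 bases between them, and the next genes listed are Gnasas1 and Gnas. The assay named miR-298 is the 5p arm in the nomenclature of the study. Mature sequences of the measured arms are given 5′ to 3′ because the comparison of arms and hairpins below rests on them, with the seed (bases 2 to 8) in capitals:
miR-296-3p: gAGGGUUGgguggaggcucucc
miR-296-5p: aGGGCCCCcccucaauccugu
miR-298 (miR-298-5p): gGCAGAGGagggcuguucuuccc
They map to chr2:174267058-174267079, chr2:174267093-174267113 and chr2:174267553-174267575, respectively. No seed was shared among them, and none of the 1679 mature mouse miRNAs of the RefSeq table had the seed of any of them. The longest run of bases in common was 5 for miR-298 with either arm of miR-296, and 4 for the arms of miR-296. All 3 were rich in G and C, with 68.2% for miR-296-3p, 66.7% for miR-296-5p and 65.2% for miR-298, against a median of 52.2% over the mature miRNAs. MiR-296-3p had 50.0% G and 18.2% C, whereas miR-296-5p had 19.05% G and 47.6% C.

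Wells were read as Ct, the amplification cycle in which fluorescence passes a threshold, so that more template gives a lower Ct. The ΔCt is the Ct minus that of miR-26a in the same sample, and levels are given here as ΔCt or, for differences, as the change in −ΔCt, in log2 units. The islet miRNA miR-375 had a Ct of 13.4 to 16.0 in all 15 samples. The other islet assays, miR-7a and miR-7b, had Ct values of 19.8 to 23.0. Islet assays had a Ct in 43 of 45 wells. Of the assays for other cell types, the 5 of blood cells had Ct values of 26.7 or higher, the 2 stromal ones of 27.7 or higher and the liver miR-122 of 26.1 or higher. The endothelial miR-126-3p and miR-126-5p had Ct values from 22.2 to 28.5 in every sample, and the muscle miR-133b from 21.4 to 31.8 in 4 of the 6 samples of 48 h and none of 24 h, while the other muscle assays had 29.1 or higher. The normalized table gives a Ct for 214 to 276 card A miRNAs in the 9 samples of 24 h, and 304 to 337 in the 6 samples of 48 h. No glucagon or insulin assay is on these cards, so the identity of the lines was not checked further.

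MiR-296-5p was by far the earliest of the 3 assays to cross the threshold in αTC1-6. In untreated cells of 24 h its Ct was 18.98, 18.92 and 18.98 in replicates 1 to 3, close to that of the reference miR-26a (17.55 to 18.98). MiR-298 followed with 25.86, 24.07 and 24.53, and miR-296-3p had 27.99, 25.92 and 27.10. Every untreated αTC1-6 sample kept this order, and a Ct gap between assays also holds any difference in assay efficiency, so only its change from sample to sample is compared below.

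At 48 h the untreated cells had much the same levels. The ΔCt of miR-296-3p was 9.004, 8.37 and 9.41 at 24 h, and 9.004 and 9.62 in replicates 2 and 3 at 48 h, where the well of replicate 1 was left blank. That of miR-298 was 6.88, 6.52 and 6.85 at 24 h, and 6.53, 6.29 and 6.90 at 48 h. That of miR-296-5p was −0.0012, 1.37 and 1.29 at 24 h, and 1.05, 1.86 and 1.06 at 48 h. For each of the 3 miRNAs the samples of the 2 time points overlapped. The differences in −ΔCt, 48 h minus 24 h, were −0.39 for miR-296-3p, −0.44 for miR-296-5p and 0.17 for miR-298, with 95% intervals that reached from −1.77 to 1.01 at the widest and adjusted p-values of 0.914 to 0.919 (Limma test), and that of miR-296-3p was 0.13 with median centring. Of the 489 assays tested, 5.93% were past the threshold.

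**Figure D1:**
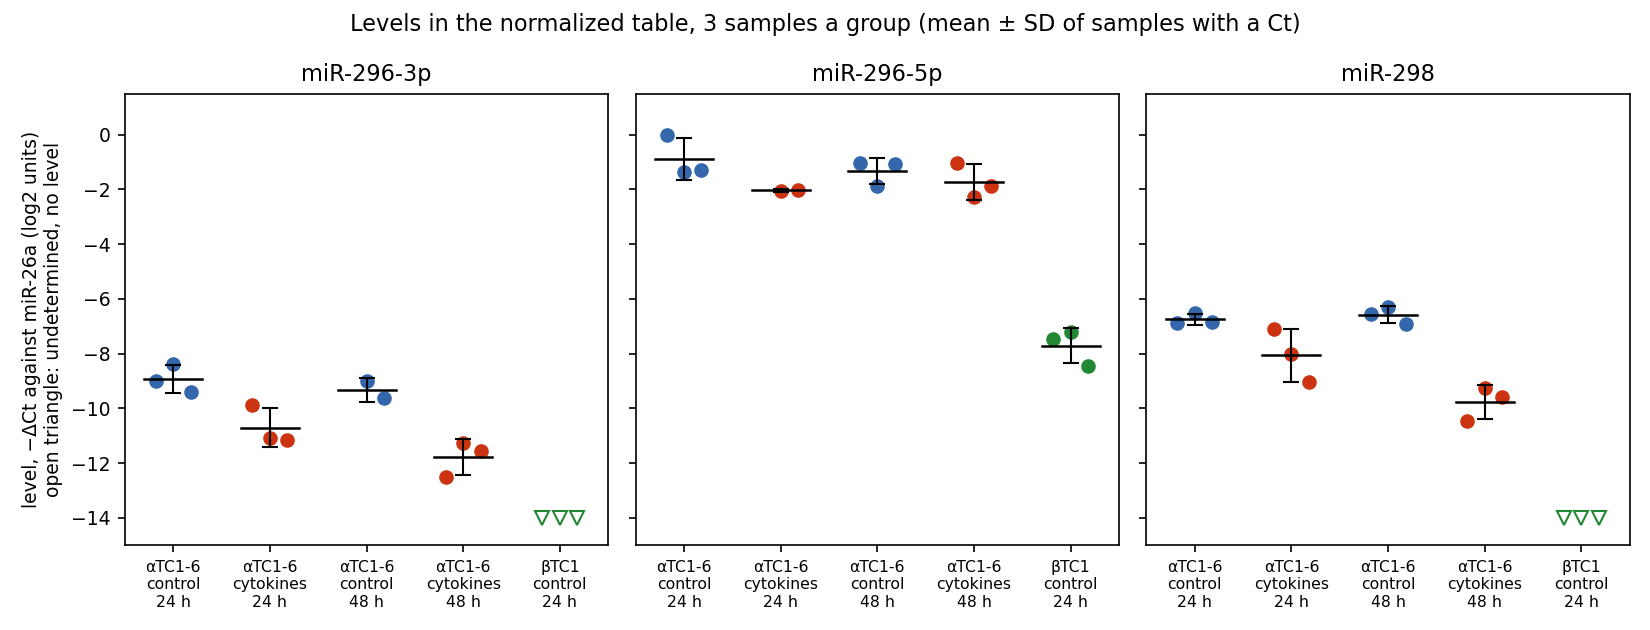
Level of each miRNA (−ΔCt against miR-26a, log2 units; higher is more abundant) in the normalized table, by group. Points are samples, horizontal lines and bars the mean and SD, and open triangles undetermined wells, which have no level; miR-296-3p and miR-298 were lower in every treated αTC1-6 sample than in any untreated one, and were undetermined in the 3 βTC1 samples.

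At steady state miR-296-5p was higher in αTC1-6 than in βTC1, whereas the comparison of miR-296-3p and miR-298 turns on wells that the deposited tables report differently. The question of this comparison was which miRNAs distinguish α from β cells before treatment. For miR-296-5p the βTC1 samples had Ct values of 25.85, 25.94 and 25.98, and ΔCt values of 7.47, 7.21 and 8.44, against −0.0012 to 1.37 in αTC1-6. The groups did not overlap, and both tables hold the same βTC1 values. MiR-296-5p was 6.82 log2 units higher in αTC1-6 (SE 0.619, adjusted p = 0.000304), a 113-fold difference with a 95% interval of 38.8 to 329.

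The normalized table holds no Ct for miR-296-3p or miR-298 in any of the 3 βTC1 samples, whose wells were undetermined. With the Ct of 40 given to such wells, the differences were 12.85 and 15.03 in favour of αTC1-6. Both assays met the filter through the αTC1-6 samples alone, so that the size, the error and the call are set by the assigned Ct and nothing is read from them. The call of miR-296-5p rests on a measured Ct in all 6 samples, and stands in a comparison where 29.6% of 480 tested assays passed the threshold, 11.9% passed it as higher in αTC1-6 and 45.8% had groups that did not overlap, shares that also hold assays with assigned Ct values.

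In the non-normalized table the same βTC1 wells carry Ct values. For miR-296-3p they were 26.33, 23.92 and 22.80, which gives ΔCt values of 7.94, 5.19 and 5.27, all below the lowest αTC1-6 value of 8.37. For miR-298 they were 24.96, 26.01 and 25.50, with ΔCt values of 6.58, 7.27 and 7.96 that overlap those of αTC1-6. On that table, miR-296-3p was lower in αTC1-6 than in βTC1 on average (a difference of −2.80, adjusted p = 0.0923), and miR-298 differed by 0.52 (adjusted p = 0.577), so that the direction turned for miR-296-3p and neither passed. MiR-296-5p differed by 6.89 and kept its call.

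Across the 37 member wells with a Ct in both tables, the largest disagreement was 0.196 cycles, in the first untreated sample of 24 h for miR-296-5p. The others were equal, and the remaining differences between the tables at member wells lie where the normalized one is blank or undetermined. In each of the 9 samples of 24 h, both lines and treated cells included, 59 to 85 card A miRNAs were undetermined in the normalized table and had a Ct in the non-normalized one. In the 6 samples of 48 h there were 0 or 1. Of the 79 miRNAs undetermined in all 3 βTC1 samples, 28 had a Ct in all 3 in the non-normalized table, and the βTC1 replicates of these 28 had a median SD of 1.70 cycles against 0.584 for the 229 with a Ct in both tables. The SD was 1.80 for miR-296-3p and 0.527 for miR-298. The plant miRNA ath-miR159a, a negative control with no counterpart in the mouse, had card A Ct values of 30.79 and 17.06 in the first and second βTC1 samples of the non-normalized table and was undetermined in the third. In the normalized table it was undetermined on card A in all 9 samples of 24 h but had a Ct in all 6 samples of 48 h, down to 16.34, so a Ct is not by itself a sign of template in either table. For the members undetermined in βTC1, the authors report separate single TaqMan assays in which neither was expressed in that line. Those assays are not among the data used here. Which table holds the state of these wells was not tested with the array data.

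**Figure D2:**
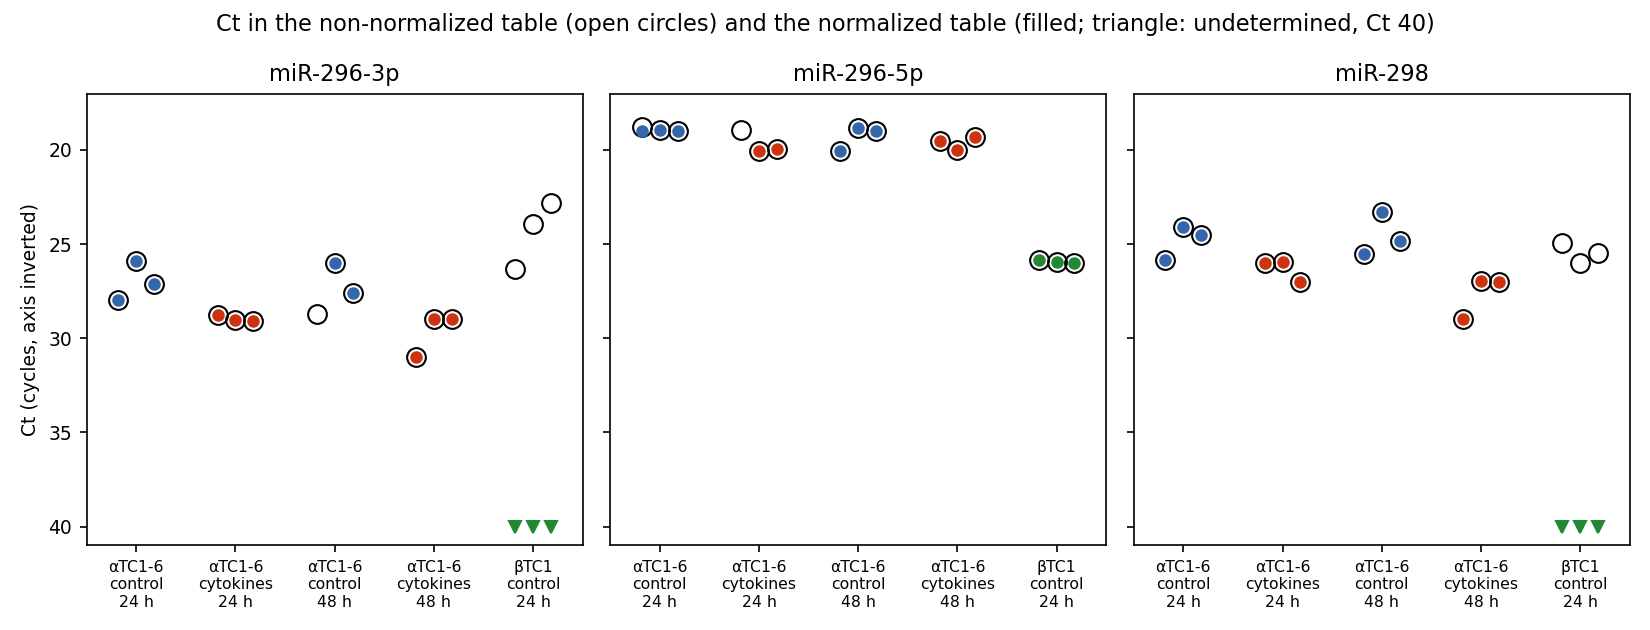
Ct of each miRNA (cycles, inverted axis) in the non-normalized table (open circles) and in the normalized table (filled circles; triangles at a Ct of 40 are undetermined wells). The tables coincide in αTC1-6, apart from 2 wells blank in the normalized table and 1 shifted by 0.196 cycles, and part in βTC1 for miR-296-3p and miR-298.

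A list of miRNAs from other imprinted loci was compared in the same way. Some of them also had undetermined βTC1 wells in the normalized table. The list takes in Mest, Igf2, H19 and the anti-Rtl1 and Meg3 part of the Dlk1-Dio3 region, and leaves out the rest of that region. Of 28 listed, 23 are on the arrays and 17 were tested: 12 were called higher in αTC1-6 and 0 lower. The median difference was 8.61 against −0.52 over all tested assays. However, 7 of the 12 had no Ct in any βTC1 sample of the normalized table, so their sizes and calls come from the assigned Ct. The assigned Ct thus enters the count and the median, and nothing is read from that count or median. The 4 with the largest differences are all among these 7, namely miR-335-3p (17.55) and miR-335-5p (17.45), encoded within Mest, and miR-431 (15.51) and miR-370 (14.88) of the Dlk1-Dio3 region. With the non-normalized table miR-335-3p differed by 4.11 (adjusted p = 0.0288), miR-335-5p by 8.64 (adjusted p = 0.428) and miR-370 by 0.86 (adjusted p = 0.679), while miR-431 had no βTC1 Ct in either table. Of the 12, 8 also passed with that table, among them miR-431 and miR-540-5p, still without a βTC1 Ct. The called miRNAs with a Ct in 2 or 3 βTC1 samples of the normalized table had the same difference in both tables, from 6.98 to 9.26.

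After treatment with cytokines, miR-296-3p and miR-298 fell in αTC1-6 when both time points were fitted in 1 model, and miR-296-5p did not pass the test. The ΔCt of miR-296-3p at 24 h post-treatment (PT) was 9.87, 11.09 and 11.13, and at 48 h PT it was 12.52, 11.27 and 11.54. All 6 treated samples lay beyond all 5 untreated ones. Averaged over time points, −ΔCt was lower than in untreated cells (a difference of −2.08, SE 0.378, adjusted p = 0.0224), which is 4.22-fold less with a 95% interval of 2.34 to 7.60.

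The ΔCt of miR-298 was 7.11, 8.01 and 9.05 at 24 h PT, and 10.48, 9.26 and 9.57 at 48 h PT. Again the 6 treated samples lay beyond the 6 untreated ones. The difference was −2.25 (SE 0.449, adjusted p = 0.0224), or 4.76-fold less with a 95% interval of 2.39 to 9.48. For both miRNAs an exact permutation test over all splits within time points gave the smallest p it allows, 0.005 (two-sided), and gave the same p on Ct without any reference. These splits do not use the replicate numbers. Between same-numbered samples −ΔCt changed by −2.72 to −0.87 for miR-296-3p and by −3.94 to −0.24 for miR-298. Any assay whose samples separate in this way reaches its smallest p. The share of all assays that separated so over both time points was not counted, and miR-370 did too. At single time points the treated samples lay lower without overlap for 7.19% of 445 assays at 24 h and 17.2% of 534 at 48 h.

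The ΔCt of miR-296-5p was 2.07 and 2.01 in replicates 2 and 3 at 24 h PT, with a blank well in replicate 1, and 1.02, 2.30 and 1.89 at 48 h PT. Treated and untreated samples overlapped, and the difference was −0.74 with a 95% interval of −1.58 to 0.10 (adjusted p = 0.448), or −0.33 with median centring. In the non-normalized table the blank well held a Ct of 18.96, or 0.09 as ΔCt, inside the untreated range, and the difference was −0.49. On ΔCt, 4 of the 5 treated samples of miR-296-5p with a Ct lay beyond all untreated ones (exact permutation test, p = 0.075). Without normalization, no treated sample of miR-296-5p did.

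Over both time points 1.68% of 477 assays were past the threshold and 0.839% as lower, which are 4 miRNAs, as many as rose (2 fell and 4 rose with median centring, and 0 and 2 without normalization). The members make up 2 of these 4, and the median over all tested assays was −0.30. The other 2, named after their values were seen, were miR-370 (−1.29, adjusted p = 0.00384) and miR-431 (−1.37, adjusted p = 0.0464), both on the list of miRNAs from imprinted loci. On that list 19 were tested, 0 rose and 2 fell, with a median of −0.74. The miRNAs that rose, likewise named after the fact, were miR-146a, an NF-κB-induced miRNA (3.56), miR-203 (2.35), miR-125b-5p (1.34) and miR-34a, a p53 target (1.09).

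The calls of both members were narrow. Without normalization the differences were −2.37 and −2.30 and neither passed (adjusted p = 0.135 for both), and with median centring miR-298 did not (−1.96, adjusted p = 0.0563). With the replicate number as a block, 30 assays rather than 8 passed, 24 of them lower, and the members kept their calls, with −1.90 for miR-296-3p (adjusted p = 0.0296) and −2.25 for miR-298 (adjusted p = 0.0451). Without 1 of 6 samples for miR-296-3p, or 1 of 9 for miR-298, the adjusted p rose to between 0.0507 and 0.0756, while the difference stayed between −2.32 and −1.90 and between −2.56 and −1.99, respectively.

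**Figure D3:**
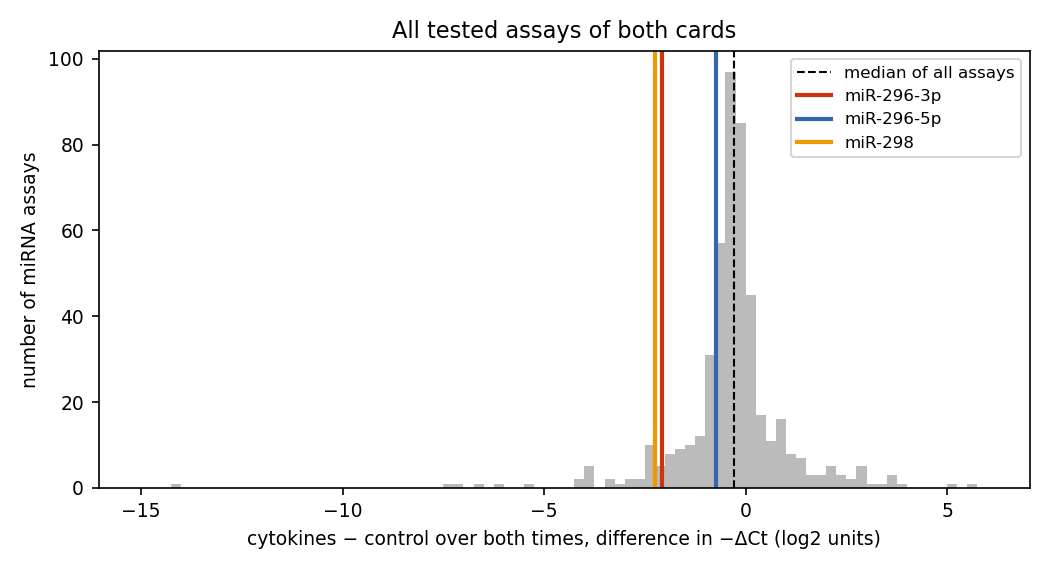
Difference in −ΔCt between treated and untreated αTC1-6 over both time points (x axis, log2 units) for the 477 tested assays (y axis, number of assays per bin of 0.25). Coloured lines mark the 3 miRNAs and the dashed line the median of −0.30; miR-298 (−2.25) and miR-296-3p (−2.08) lie in the lower tail, and miR-296-5p (−0.74) lies near the bulk.

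By time point none of the 3 passed the threshold. At 24 h PT the treated samples with a Ct lay beyond the untreated ones for every member, as for 7.19% of the 445 assays tested in that direction, but for miR-296-5p this holds only with treated replicate 1 blank. The differences were −1.77 for miR-296-3p (95% interval −3.09 to −0.45, adjusted p = 0.648), −1.15 for miR-296-5p and −1.31 for miR-298 (adjusted p = 0.963 for both), and 0.225% of assays passed the threshold. The difference of miR-296-5p was −0.57 with the non-normalized table, which fills that blank, and −0.71 without untreated replicate 1. At an unadjusted p under 0.05, which 4.49% of assays had, miR-296-3p alone would pass.

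At 48 h PT miR-298 had the larger difference, −3.19 (SE 0.439, 95% interval −4.31 to −2.07, adjusted p = 0.0610), a 9.13-fold lower level. MiR-296-3p differed by −2.46 (95% interval −4.00 to −0.92, adjusted p = 0.381). Treated and untreated samples did not overlap for either, as for 17.2% of the 534 assays tested in that direction, and 0.562% passed the threshold, while both had an unadjusted p under 0.05, as did 11.2% of assays. MiR-296-5p differed by −0.41, or 0.029 with median centring (adjusted p = 0.829 with miR-26a) and its groups overlapped. In 1 fit over all 15 samples miR-298 passed (adjusted p = 0.00814), and with the replicate number as a block miR-298 had an adjusted p of 0.230 at 48 h and miR-296-3p one of 0.432 at 24 h.

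The estimated cytokine effect on miR-298 was larger at 48 h than at 24 h (a difference of −1.88, 95% interval −3.49 to −0.27). This did not pass the correction (Limma test, adjusted p = 0.992, with 0.21% of assays past the threshold), so a change of the effect with time was not established. For miR-296-3p the difference of effects was −0.69 and for miR-296-5p it was 0.74, with intervals that include 0.

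**Figure D4:**
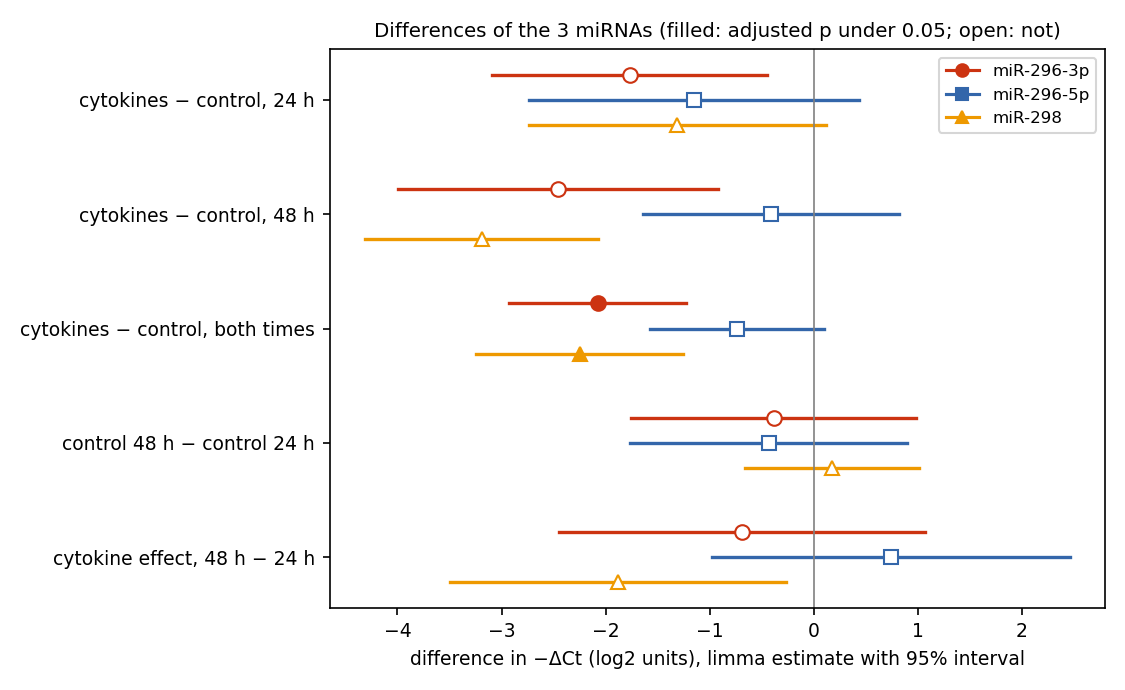
Differences in −ΔCt (x axis, log2 units) with 95% intervals from the Limma test for the 3 miRNAs in each comparison within αTC1-6. Filled symbols have an adjusted p under 0.05, which holds for miR-296-3p (−2.08) and miR-298 (−2.25) with both time points together.

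The Ct difference of 2 assays within a sample does not depend on miR-26a, so it shows how the members moved relative to each other. MiR-296-3p minus miR-298 was 2.13, 1.85 and 2.57 cycles in untreated cells of 24 h and 2.76, 3.07 and 2.09 in treated ones. At 48 h it was 2.71 and 2.72 in the untreated cells with both values, and 2.04, 2.01 and 1.97 in the treated ones. These miRNAs, from separate hairpins with different seeds, stayed within 1.85 to 3.07 cycles of each other in every αTC1-6 sample with both values in the normalized table. In the non-normalized table untreated replicate 1 of 48 h, blank in the normalized one for miR-296-3p, was at 3.22. With cytokines the gap changed by 0.46 cycles at 24 h (exact permutation test, p = 0.3) and by −0.71 cycles at 48 h, where the groups did not overlap and the exact permutation test gave p = 0.1, the smallest it allows. With the non-normalized table the change at 48 h was −0.88 cycles. The average over both time points, −0.13 cycles (exact permutation test, p = 0.655, adjusted p = 0.715 over 12 tests), thus combines changes of opposite sign.

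The arms of miR-296 drew apart more. MiR-296-3p minus miR-296-5p was 9.005, 6.998 and 8.12 cycles in untreated cells of 24 h and 7.14 and 8.57 in those of 48 h. In treated cells it was 9.02 and 9.13 at 24 h, and 11.49, 8.98 and 9.65 at 48 h. The gap grew by 1.61 cycles with treatment (exact permutation test, p = 0.03), and 4 of the 5 treated samples with both values lay above every untreated one, although 2 of these by little. In the non-normalized table untreated replicate 1 of 24 h was at 9.20, above the treated 9.02 and 9.13. Treated replicate 1 of 24 h, blank in the normalized table, was at 9.78 there. For miR-298 minus miR-296-5p the gap grew by 1.71 cycles, from 4.43 to 6.88 in untreated to 5.95 to 9.45 in treated cells (exact permutation test, p = 0.025). Neither passed the correction over the 12 exact permutation tests of member pairs (adjusted p = 0.18 for both), which do not use the replicate numbers. Between same-numbered samples, miR-296-3p minus miR-296-5p grew in 4 of 4 pairs, by 1.009 to 2.02 cycles, and miR-298 minus miR-296-5p in 5 of 5, by 0.79 to 3.97 cycles. An exact sign-flip permutation test over these pairs gave p = 0.125 and p = 0.0625, the smallest that this number of pairs allows. With 3 samples a group an exact test at a single time point cannot go below p = 0.1.

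**Figure D5:**
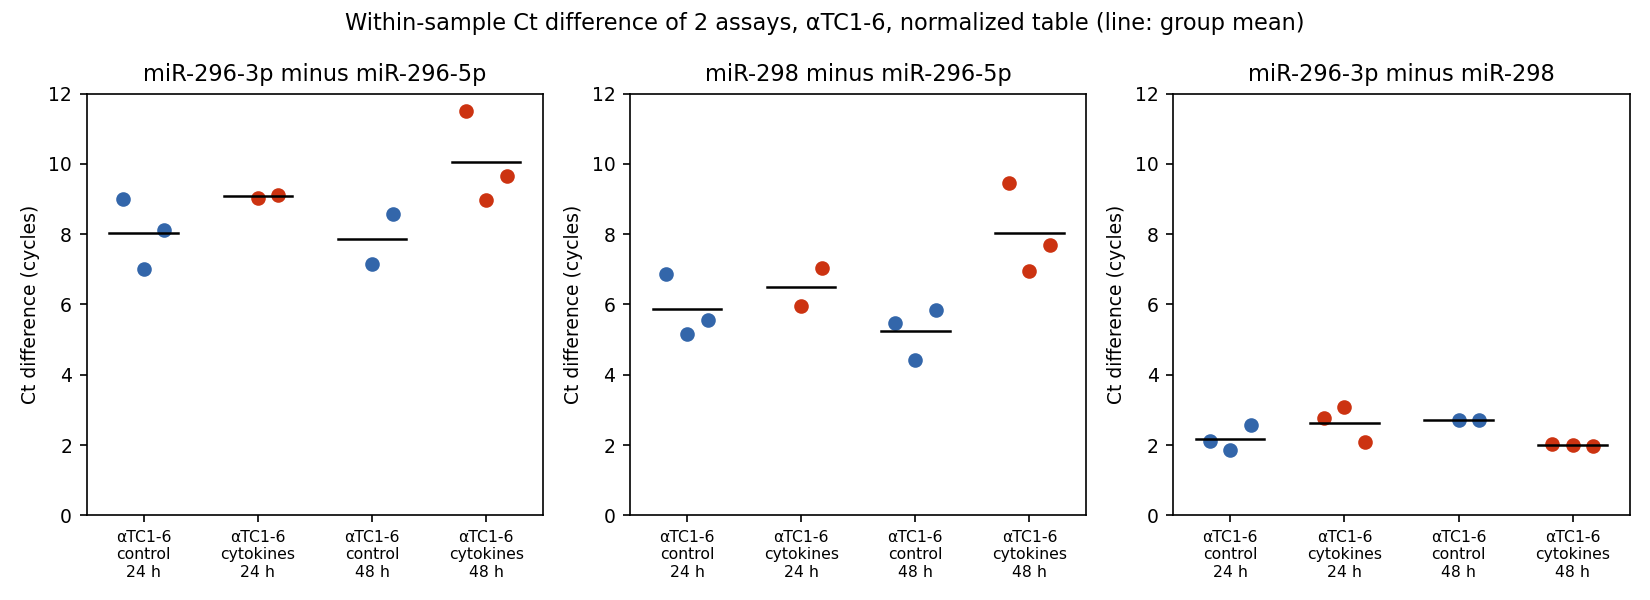
Within-sample Ct difference (cycles) for each pair of assays in the 4 αTC1-6 groups of the normalized table. Points are samples with a Ct for both assays and lines are group means; miR-296-3p and miR-298 lie 1.85 to 3.07 cycles apart, while both gaps to miR-296-5p are widest at 48 h PT.

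In βTC1, where only the non-normalized table gives all 3 a Ct, the gaps were of another size. MiR-296-3p minus miR-296-5p was 0.47, −2.02 and −3.17 cycles, against 6.998 to 9.20 in untreated αTC1-6 of 24 h on that table. MiR-298 minus miR-296-5p was −0.90, 0.07 and −0.48 against 5.15 to 7.07, and miR-296-3p minus miR-298 was 1.37, −2.09 and −2.69 against 1.85 to 2.57. The groups did not overlap for any of these pairs, and the exact permutation test gave its smallest p of 0.1 for each. These gaps rest on βTC1 wells of miR-296-3p and miR-298 that the normalized table leaves undetermined, so they hold only if those wells had template.

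The assays that ran most nearly in parallel with each member were sought by the SD of the within-sample Ct difference over the 12 αTC1-6 samples. This is a description, since points share treatment and input. For miR-296-3p, miR-298 ranked 1 of 314 assays compared, with an SD of 0.416 cycles against a median of 1.30, and for miR-298, miR-296-3p ranked 1 of 376. Next for miR-296-3p came rno-let-7e* (0.658), miR-673-3p (0.735), miR-300 (0.773) and miR-370 (0.790), and for miR-298 came miR-673-3p (0.678), rno-let-7e* (0.686), miR-300 (0.748) and miR-700 (0.832). Of these, miR-673-3p, miR-300 and miR-370 are encoded in the Dlk1-Dio3 region, with miR-300 outside the listed part.

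MiR-296-5p had other neighbours. MiR-298 ranked 293 of its 334 assays compared, with an SD of 1.39 cycles, and miR-296-3p had too few shared samples to be ranked in the normalized table. In the non-normalized table miR-296-3p ranked 312 of 421 for miR-296-5p, with an SD of 1.19. Closest to miR-296-5p were miR-148a (0.335), miR-325 (0.338), miR-152 (0.349), the islet miRNA miR-375 (0.353) and miR-129-3p (0.358). Over all assays compared the median SD to miR-296-5p was 0.725. For each member 4 of the 5 nearest assays were shared between the tables.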

How the data were processed

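MiRNAs of 15 samples were measured on TaqMan rodent cards A and B after reverse transcription and preamplification. The authors deposited ΔCt, log2 values relative to miR-26a, and a table of non-normalized Ct. In the latter the card B values of ath-miR159a repeat those of card A, so not every row scores the same wells. A further table of fold changes made by the authors was not used. Per the methods, Statminer was used for quality control and multiple reference genes for normalization, and how these led to a single reference in the table is not given in the sources used here. Ct was recovered as ΔCt plus the Ct of miR-26a, undetermined wells were set to 40 and blank wells left missing. Duplicate wells were averaged, and 7 control assays and miR-26a were left out. Limma 3.58.1 (R 4.3.3) was fitted on −ΔCt of the groups compared, with time point as a term for both time points together, on assays with a Ct in no fewer samples than without one. Tests were two-sided with Benjamini-Hochberg adjustment within each card at 0.05, and were tested on simulated data. Exact permutation tests were run in Python 3.11.15 with scipy 1.17.1. The precision is limited by 3 samples a group, and the number of assays with a Ct stands for depth.

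Same-numbered treated and untreated samples deviated together (r from 0.276 to 0.476 at 24 h and from 0.259 to 0.443 at 48 h, over 278 assays), so the numbers were taken to pair them. The main Limma fits and the exact permutation tests over splits did not use this pairing. It entered only the replicate block and the comparisons of same-numbered samples. Alternatives were other references, filters and treatments of undetermined wells, the non-normalized table, the replicate block, and leaving out each sample. The members and lists were chosen with earlier results of these data known. Named were the 3 members, the reference miR-26a, the 5 nearest assays of each member and up to 4 called miRNAs of imprinted loci per comparison with the largest difference.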

Additional observations from a re-analysis of the deposited data

How the results depend on the processing

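At steady state miR-296-5p kept its call in all 18 alternatives (6.38 to 7.11). With the non-normalized table, where the βTC1 wells hold a Ct, the difference was −2.80 for miR-296-3p and 0.52 for miR-298, and the calls of both in the other alternatives rest on the assigned Ct. Against the 48 h controls miR-296-3p had too few Ct values to be tested.

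For cytokines over both time points, miR-296-3p was −2.37 and miR-298 −2.30 without normalization (adjusted p = 0.135 for both), and miR-298 was −1.96 with median centring (adjusted p = 0.0563). Without 1 sample miR-296-3p ranged from −2.32 to −1.90 and lost its call without untreated replicate 2 or treated replicates 2 or 3 of 24 h, or untreated replicates 2 or 3 or treated replicate 3 of 48 h. MiR-298 ranged from −2.56 to −1.99 and kept its call only without untreated replicates 1 or 3 or treated replicate 1 of 24 h. The cause was not tested. At 48 h miR-298 (−3.19) passed among assays with a Ct in every sample (adjusted p = 0.0436), where fewer were tested, and in 1 fit over all 15 samples (adjusted p = 0.00814). Small differences turned: miR-296-5p at 48 h was 0.029 with median centring, and between untreated time points miR-296-3p was 0.13 with median centring and 0.23 without normalization, and miR-296-5p ranged from −0.68 to 0.0091 without 1 sample.

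The gap of miR-296-3p to miR-296-5p ranged without 1 sample from 1.24 to 1.96 cycles with cytokines over both time points, and from −0.90 to 0.53 between untreated time points, where the non-normalized table gave 0.031. With cytokines over both time points that of miR-298 to miR-296-5p ranged from 1.35 to 1.98 and that of miR-296-3p to miR-298 from −0.23 to 0.012. Over same-numbered pairs (replicate block, chosen after seeing the data) the gaps to miR-296-5p grew by 1.49 and 2.12 cycles (exact sign-flip test, p = 0.125 and 0.0625, the smallest possible with 4 and 5 pairs).

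The replicate block changed no call of the 3 miRNAs (−1.90 for miR-296-3p over both time points). Over both time points 8 assays passed (4 higher, 4 lower), against 30 with the block (6 and 24), 15 with a Ct in every sample, 2 without normalization (2 and 0), 6 with median centring (4 and 2) and 3 to 9 without 1 sample. At 24 h 1 passed, with 0 to 3 over the alternatives, and at 48 h 3, with 0 to 6. At steady state 142 passed, against 81 with a Ct in every sample. Between untreated time points 29 passed, against 1 with a Ct in every sample and 2 each with undetermined wells missing and with the non-normalized table. For the effect at 48 h minus 24 h 1 passed, with 0 to 4. Median centring moved the median of all assays from −0.30 to −0.01 over both time points and from −0.51 to −0.07 at 48 h.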

Other observations

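The Ct values of these assays gathered near whole cycles. Of the 37 member wells of the normalized table with a Ct, 20 (54.1%) lay within 0.05 of a whole cycle, where an even spread would give 10%. Over card A the share was 39.6% of 4164 values and over card B 26.0% of 4477. Its part in the spread between replicates was not tested.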
